A study of Mus musculus with 21 samples.

Results

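Agtr2, the gene of the angiotensin II type 2 (AT2) receptor, was followed through single cells of mouse back skin. The gene was chosen by its name, with its pattern in these cells already known, and was 1 of 20284 genes in a table of 1823 wells that each held a sorted cell. All cells came from CD1 embryos at embryonic stage E15.0, when dermal fibroblasts gather into dermal condensates, the cell clusters that instruct the epidermis to build a hair follicle. Wells named DC0 (149), DC1 (152) and DC2 (151) are called condensate wells here, and 1371 wells named Fb are called fibroblast wells. The labels give no genotype, sex, pooling of embryos or sort marker, do not define DC0 and do not say whether these names came from the sort or from clusters of the same cells. SORT-seq, the plate-based protocol used, sorts 1 cell into each well and counts its RNA molecules near their 3' ends by unique molecular identifiers (UMIs), with the chemistry of CEL-Seq2.

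Angiotensin II is cut from angiotensinogen by renin and angiotensin-converting enzyme and acts on a pair of receptors that are coupled to G proteins. The AT1 receptor carries most of the effects known from adult blood vessels, while the AT2 receptor is known for high levels in fetal mesenchyme that decline after birth, and is often described as opposing AT1 signals. Upper dermal (papillary) fibroblasts lie next to the epidermis and form condensates under WNT signals, and lower dermal (reticular and hypodermal) fibroblasts make fibrous matrix and fat cell precursors.

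Agtr2 lies on chromosome X, 21484544 to 21489164 on the plus strand (mm10, GENCODE M21), with up to 3 exons in a transcript and 0 other annotated genes overlapping it (ENSMUSG00000068122.10). RefSeq's 300 bases around its start (chrX:21484374-21484673, plus strand, GRCm38.p6) are shown because the gene's level varied so much between single wells of the same name. Capitals mark a TATA-like motif, TATANAA, found once on the plus strand and beginning 28 bases before the start that RefSeq gives, which lies downstream of the GENCODE start above.
Agtr2 promoter: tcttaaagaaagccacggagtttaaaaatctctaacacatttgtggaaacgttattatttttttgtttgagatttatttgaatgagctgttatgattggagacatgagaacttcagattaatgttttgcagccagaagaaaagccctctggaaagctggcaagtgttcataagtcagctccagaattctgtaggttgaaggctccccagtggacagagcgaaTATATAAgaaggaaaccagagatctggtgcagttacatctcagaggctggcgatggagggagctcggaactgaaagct
On either strand this motif occurred in 11.8% of 27025 such windows, and in 2 of the 19 windows found for the 24 genes named with Agtr2 below.

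The 9 libraries, each a plate of wells, held 1436924 to 6414137 UMIs in cell wells. Libraries 1 to 7 held fibroblast wells with 84 condensate wells among them, library 8 held DC0 and DC2 wells, and library 9 held DC1 wells. The median depth of a well was 12773 UMIs in DC0, 10469 in DC1 and 8333 in DC2, against 18509 in fibroblast wells. Libraries 3, 5, 6 and 7 carried the same flow cell in their labels and are called the shared run. The labels do not state whether libraries came from separate animals, so the p-values below concern libraries and not animals. The tests, run in edgeR, estimate the spread of a gene between libraries with help from all genes tested. A very small p-value thus does not measure the spread of that gene alone. The SE given with a difference was worked back from the same test statistic and has the same limit. The condensate markers Sox2, Sox18 and Foxd1 stood at 0.944, 2.51 and 7.29 CPM (counts per 1000000 UMIs) in fibroblast wells, and at 120, 280 and 495 CPM in DC0 wells of library 8 other than 1 well described below. The 10 fibroblast markers were all detected in the fibroblast wells.

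Agtr2 was a gene of the fibroblast wells. Its level is given in CPM of the wells summed in a library. In DC0 wells the 8 libraries ran over 15.4, 56.7 and 200 CPM (lowest, median and highest), in DC1 wells over 4.87, 28.3 and 108 CPM, and in DC2 wells over 0, 21.4 and 701 CPM. In fibroblast wells libraries 1 to 7 had 1092, 936, 920, 836, 1403, 988 and 1195 CPM. Every fibroblast value lay above every condensate value, so the groups did not overlap, and the 3 condensate populations overlapped throughout. The means were 73.8 ± 64.4 in DC0, 37.4 ± 32.7 in DC1, 123.1 ± 238 in DC2 (SD, n = 8 each) and 1053 ± 195 CPM in fibroblasts (SD, n = 7). The order of the 3 condensate populations is not set by these values, since DC2 had the highest mean and the lowest median. The highest DC2 value, in library 1, rested on 2 UMIs among 2855, with an exact Poisson interval of 84.8 to 2531 CPM that covers counting error only. Without that library DC2 averaged 40.6 ± 52.5 CPM. These levels are a description with no test, because the gene was chosen for them.

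**Figure D1:**
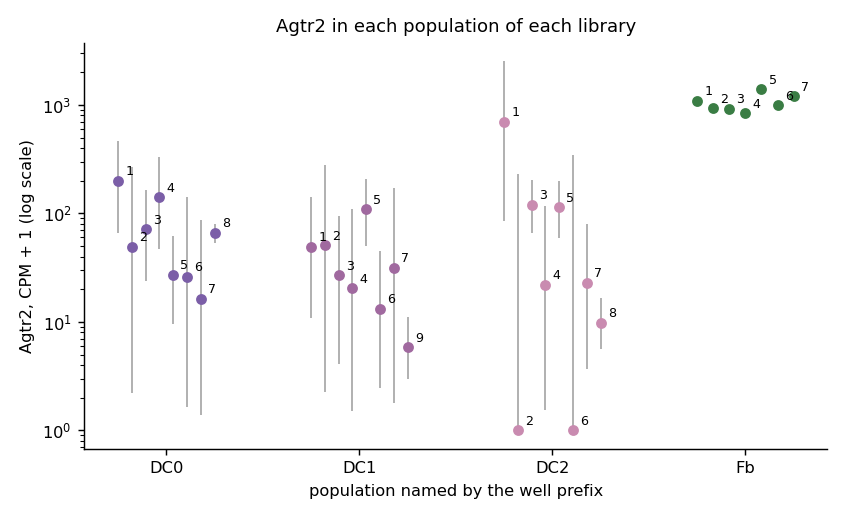
Agtr2 CPM plus 1 (log scale) in DC0, DC1, DC2 and Fb wells, 1 point per library with its number, and grey bars for the exact 95% Poisson interval, which is smaller than the point in Fb. The 7 Fb points lie between 836 and 1403 CPM, above every condensate point, and the 2 DC2 points at the bottom are libraries with 0 Agtr2 UMIs.

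Single wells overlapped where the library sums did not. Of 341 condensate wells with at least 3000 UMIs, 290 (85.0%) had no Agtr2 UMI and 1 reached 1000 CPM. Of 1155 fibroblast wells at that depth, 260 (22.5%) had no UMI and 381 (33.0%, or 28.8 to 40.0% by library) reached 1000 CPM.

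A sole DC0 well of library 8 held 91 of the 96 Agtr2 UMIs of that library's DC0 wells, and all other wells of that group held 5 among them, or 3.49 CPM. It was the deepest of its group at 44482 UMIs, where the deepest of the others had 32260. The well had 129 UMIs of Postn, 110 of Thbs2, 49 of Aspn and 635 of Col1a1, genes that ran high in Agtr2-rich fibroblasts below. It had 0 UMIs of the reporter gene eGFP, which has a row in the table, and of Foxd1, Cxcr4, Dll1 and Gli1 and 1 each of Sox2, Sox18, Lef1 and Bmp4, markers that its named population carried at higher levels. The expression of this well thus went against its DC0 name, and it was kept in the values above.

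Low Agtr2 values need the background of the plate beside them. On the plates with fibroblasts, 43 of 84 condensate wells had Agtr2, at 0.869 UMIs a well and never more than 5. On the plates without fibroblasts, 19 of 368 had it, at 0.312 UMIs a well, most of them from the DC0 well above. Wells named for spike-ins had 0.188 UMIs a well on the first kind of plate (21 UMIs in 112 wells) and 0.0312 on the second (1 UMI in 32 wells). The part of such background in the low values was not tested.

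Within the fibroblast wells Agtr2 was split into a low and a high range. Among the 1155 wells with at least 3000 UMIs the median was 166.6 CPM, the upper quartile 1667 CPM and the highest value 7520 CPM, or 378 UMIs in a well of library 1. Up to 100 CPM lay 491 wells (42.5%), between 300 and 1000 CPM only 108 (9.35%), and above that 381. If all wells of a library shared its mean level, counting error would leave 0.913 wells without a UMI, where 260 were seen. The share of wells at 1000 CPM or more was 34.3, 29.5, 33.7, 29.7, 37.8, 28.8 and 40.0% in libraries 1 to 7. All 7 plates thus held both ranges. Ranked by spread beyond counting error among 1725 to 1813 genes with at least 100 CPM, Agtr2 stood between place 50 and place 94 in the 7 libraries.

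**Figure D2:**
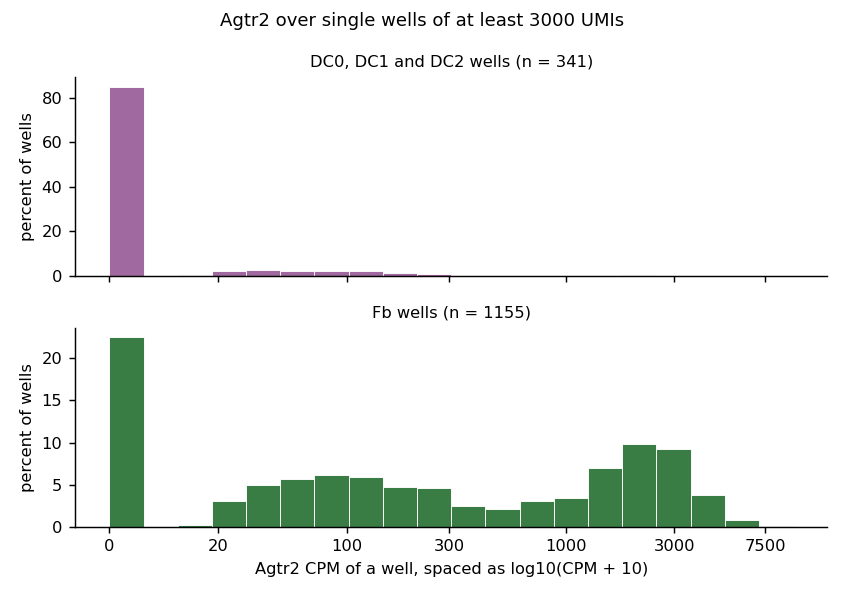
Percent of wells by Agtr2 CPM, with bins of equal width on log10(CPM + 10) and linear CPM written on the axis, for 341 condensate wells (top) and 1155 Fb wells (bottom) of at least 3000 UMIs. The bin of 0 UMIs holds 85.0% of condensate wells, and Fb wells show 22.5% in it, a broad rise near 100 CPM and another around 1000 to 3000 CPM with few wells between them.

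Fibroblast wells of each library were next set apart by Agtr2 itself. Agtr2-high wells lay at or above the 2/3 quantile of Agtr2 CPM in their library (384 wells, 636 to 7520 CPM each) and Agtr2-low wells at or below the 1/3 quantile (400 wells, 0 to 128 CPM each). Wells were summed per library and class, which gave 1985 to 2993 Agtr2 CPM in the high and 0 to 35.1 in the low sums. The high wells were also deeper in every library, with median totals of 14485 to 39698 UMIs against 9650 to 31749 in the low wells. Mitochondrial RNA took 0.826 to 2.32% of UMIs in the high and 0.898 to 2.32% in the low sums. By quasi-likelihood tests in edgeR, blocked by library, 2043 of 9720 other genes were higher in Agtr2-high wells (21.0%) and 2164 lower (22.3%), at a Benjamini-Hochberg adjusted p under 0.05. With every well thinned to 3000 UMIs before the split, 621 were higher and 536 lower of 3870 genes tested.

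To name genes without testing them on the libraries that named them, 12 genes in each direction were taken from the shared run and tested in libraries 1, 2 and 4. In those 3 libraries 13.5% of 8946 genes were higher in Agtr2-high wells and 10.4% lower. All 24 named genes passed there in the direction in which they had been chosen. They were the most extreme of 2814 genes that kept 1 direction in every library of the shared run.

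The genes higher with Agtr2 included several matrix proteins. Postn, a matricellular protein of collagen-rich tissue (chromosome 3, 54361109 to 54391037, mm10), had 1986, 2270 and 2375 CPM in Agtr2-high wells of libraries 1, 2 and 4, against 176, 141 and 120 CPM in Agtr2-low wells. High wells were above low wells in each library, and Postn differed by 4.01 on the log2 scale (SE 0.0993, adjusted p = 1.61e-55, edgeR). Aspn, a small leucine-rich proteoglycan that binds collagen (chromosome 13, 49544443 to 49567565), averaged 630 ± 168 CPM in high and 6.87 ± 2.11 CPM in low wells (SD, n = 3), a difference of 6.63 (SE 0.184). In the shared run Aspn averaged 695 ± 52.5 in high and 31.8 ± 45.8 CPM in low wells, the spread of the second coming from 100 CPM in library 6. Thbs2, a thrombospondin of the matrix, had 837 ± 94.7 CPM in high and 43.9 ± 16.9 CPM in low wells (4.35, SE 0.133). Dpt and Ogn, matrix proteins of the dermis, were higher by 3.34 (SE 0.112) and 3.73 (SE 0.167).

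The other genes higher with Agtr2 included known regulators of growth and of WNT signals. Cdkn1c, an imprinted inhibitor of cyclin-dependent kinases, had 2873 ± 169 CPM in high and 415 ± 80.8 CPM in low wells (2.91, SE 0.0816). Plagl1, an imprinted zinc finger factor, had 1211 ± 348 CPM in high and 87.9 ± 11.3 CPM in low wells (3.86, SE 0.112). Sfrp2, a secreted modulator of WNT signals, was higher by 4.61 (SE 0.149), the IGF-binding protein gene Igfbp4 by 3.68 (SE 0.126), and Ptn, the heparin-binding factor pleiotrophin, by 3.68 (SE 0.212). Itm2a, a membrane protein gene that also lies on chromosome X (107397099 to 107403376), had 1443 ± 91.2 CPM in high and 88.3 ± 21.3 CPM in low wells (4.17, SE 0.108). Akap12, which anchors protein kinase A, was higher by 4.80 (SE 0.199).

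The genes lower with Agtr2 included WNT inhibitors and regulators known from upper dermis. Stmn2, a microtubule regulator best known from neurons (chromosome 3, 8509360 to 8561606), averaged 2.89 ± 1.4 CPM in Agtr2-high and 259 ± 99 CPM in Agtr2-low wells of libraries 1, 2 and 4. The classes did not overlap, with 10 UMIs in all high and 690 in all low wells there, and differed by -6.44 (SE 0.26, adjusted p = 4.11e-39, edgeR). Crabp1, a retinoic acid binding protein of upper dermal fibroblasts, had 773 ± 81.6 CPM in high and 3315 ± 365 CPM in low wells (-1.98, SE 0.0782). The WNT inhibitors Sfrp5 and Wif1 were lower by -4.36 (SE 0.204) and -3.29 (SE 0.173).

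Bcl11a and Bcl11b, zinc finger factors, had 31.3 ± 3 and 127 ± 12.6 CPM in high wells, against 266 ± 27.6 and 560 ± 72.3 CPM in low wells. Their differences were -2.95 (SE 0.162) and -2.01 (SE 0.113). Col7a1, the collagen of the anchoring fibrils under the epidermis, was lower by -2.70 (SE 0.161) and Cav1, the caveolae protein caveolin-1, by -3.14 (SE 0.133). The guidance gene Sema6d, the anchoring protein gene Akap2, Lix1 and Tex15, a gene known from germ cells, were lower by -4.15, -3.04, -3.53 and -2.23. The last gene taken in each direction in the shared run had a mean log2 ratio (50 CPM added) of 2.43 (Akap12) and -1.67 (Lix1), and the next genes, left out, 2.42 (Igf2) and -1.65 (Nkd1).

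**Figure D3:**
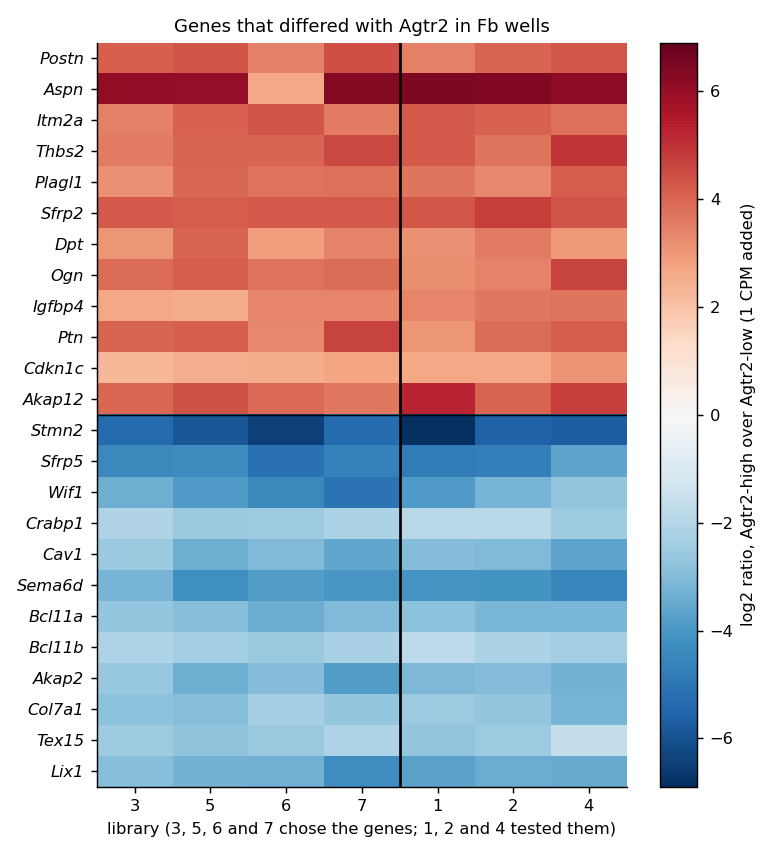
Log2 ratio of CPM (1 CPM added), Agtr2-high over Agtr2-low, for the 24 named genes in each of 7 libraries; red is higher and blue lower in Agtr2-high wells. The 12 genes above the line are red and the 12 below it blue in all 7 libraries, the 4 that chose them (left) and the 3 that tested them (right); Aspn is paler in library 6.

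Likeness over single wells gave a partly different set. The measure was Spearman's rho with Agtr2 CPM within a library, averaged over 7 libraries of 108 to 208 wells, for 1771 genes of at least 100 CPM. It is a description of wells that share a plate and differ in depth, and the median gene had -0.054. The 6 genes most like Agtr2 were Cdkn1c (0.78), Igf2 (0.78), H19 (0.78), Dlk1 (0.77), Postn (0.76) and Thbs2 (0.76). Of these Cdkn1c, the growth factor gene Igf2, the noncoding RNA gene H19 and Dlk1, a membrane protein of fat cell precursors, are known as imprinted genes. The 6 genes most opposite were Tcf4 (-0.70), Crabp1 (-0.69), Twist2 (-0.68), Bcl11b (-0.64), the parathyroid hormone receptor gene Pth1r (-0.63) and Akap2 (-0.63). Over 31 sums of a population in a library, which also separate condensate from fibroblast wells, the genes most like Agtr2 by Pearson's r of log2(CPM + 10) were Col1a2 (0.87), Fn1 (0.84), Kitl (0.84), Igf2 (0.83) and Fbn2 (0.82). Igf2 was the gene that both orders shared.

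Along finer steps of Agtr2 the partners did not all move at the same point. In wells of up to 100, 100 to 300, 300 to 1000, 1000 to 3000 and over 3000 Agtr2 CPM, Postn averaged 122.1 ± 24.8, 281.1 ± 102.4, 815 ± 479, 2033 ± 363 and 2081 ± 263.5 CPM (SD, n = 7 libraries). Crabp1 averaged 3504 ± 417, 3341 ± 403.5, 2251 ± 676, 796.5 ± 207 and 516 ± 152 CPM in the same steps. Postn thus stood at similar levels in the last 2 steps, and Crabp1 at similar levels in the first 2. Stmn2 already stood at 22.95 ± 19.8 CPM in the middle step, against 275.8 ± 82.97 CPM in the first. Aspn averaged 700 ± 129 CPM between 1000 and 3000 Agtr2 CPM and 530 ± 261 CPM above that, values within their spread. The middle step held 10 to 21 wells a library, fewer than the others in sum except the last, and Postn and Crabp1 spread most there. Median depth differed along the steps too, at 19935, 19208, 24411, 28866 and 29379 UMIs a well, and its part was not tested. These steps use the same wells as the classes above and are given without a test.

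**Figure D4:**
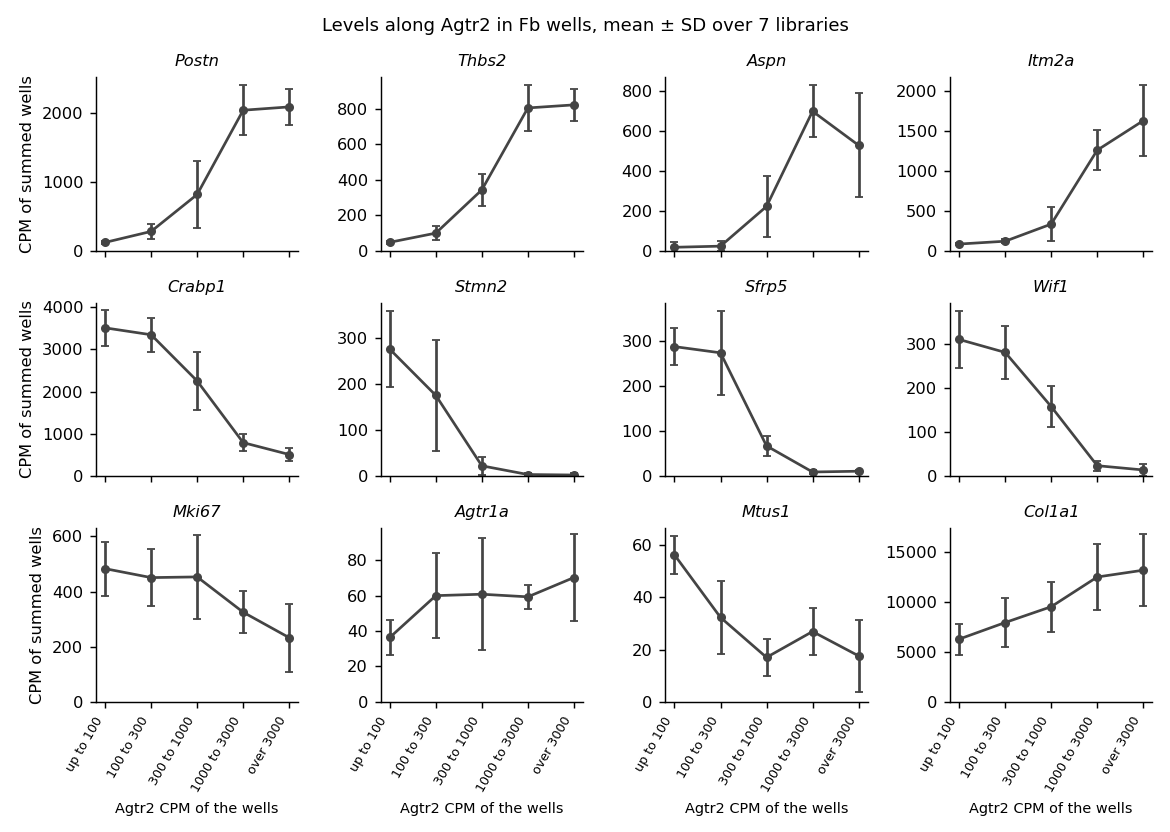
CPM of 12 genes in Fb wells grouped by their Agtr2 CPM, mean ± SD over 7 libraries, each vertical axis linear and starting at 0. Postn, Thbs2 and Itm2a are high in wells of 1000 Agtr2 CPM or more, and Crabp1, Stmn2, Sfrp5 and Wif1 in wells up to 300 CPM; Col1a1 changes less, 6264 CPM in the first step and 13140 CPM in the last.

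Lists of genes known for a role were then read in the fit over 7 libraries. The median of all genes tested there was -0.048 on the log2 scale, with 21.0% higher and 22.3% lower. Of 17 upper dermal genes tested, 14 were lower and 2 higher in Agtr2-high wells, with a median of -1.87, and Rspo1 did not pass. Counts here cover the genes of a list that passed the filter on low counts. A gene near 0 in one class passed that filter through the other class, so where members are missing the count describes those tested and not the list. Notum, a WNT-inactivating enzyme, had 1.69 ± 1.37 CPM in high and 23.0 ± 6.38 CPM in low wells (-3.76, SE 0.321, adjusted p = 1.74e-10), and Lef1, a nuclear factor of WNT signals, had 11.2 ± 5.2 CPM in high and 157 ± 34.3 CPM in low wells (-3.70, SE 0.142; n = 7 each). Dkk2, also a WNT inhibitor, went the other way, with 112 ± 21.8 CPM in high and 3.90 ± 3.78 CPM in low wells (4.85, SE 0.216). Ntn1, the guidance factor netrin-1, was higher by 0.34 (SE 0.091).

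Of 16 lower dermal genes 14 passed the filter on low counts. Mfap5 passed it through the high wells, so no count is read from this list. Mfap5, a microfibril protein, had 80.9 ± 33.3 CPM in high and 2.54 ± 1.7 CPM in low wells (5.06, SE 0.25). Col14a1, a collagen on the surface of fibrils, had 426 ± 25.4 CPM in high and 44.6 ± 10.2 CPM in low wells (3.41, SE 0.0876). Thy1, a fibroblast surface protein, was lower by -1.03 (SE 0.0635), with 434 ± 72.7 CPM in high and 978 ± 283 CPM in low wells.

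Matrix genes were mostly higher in Agtr2-high wells, and their list shares 5 members with the lower dermal list. Of 38 tested, 34 were higher and 2 lower, with a median of 1.12. Loxl1, which cross-links elastic fibres, had 233 ± 18.9 CPM in high and 11.1 ± 5.46 CPM in low wells (4.49, SE 0.137). Lum, the proteoglycan lumican, was lower by -0.58 (SE 0.0473), with 1321 ± 112 CPM in high and 2153 ± 191 CPM in low wells.

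Of 16 genes of fat cell precursors 13 passed the filter on low counts. Ebf2 passed it through the high wells, so no count is read from this list. Dlk1 is in the lower dermal list too, and Klf4 in the stress list. Ebf2, a factor of fat cell precursors, had 17.3 ± 8.39 CPM in high and 0.251 ± 0.472 CPM in low wells, and Pparg, the master factor of fat cells, had 29.6 ± 4.33 CPM in high and 5.59 ± 2.76 CPM in low wells (2.47, SE 0.24). Klf4 was higher by 3.07 (SE 0.0991), and Pdgfra, a growth factor receptor of most fibroblasts, was lower by -0.28 (SE 0.0634).

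Of 12 genes of a tendon-like list 8 passed the filter on low counts. Kera, Fmod, Col11a1 and Thbs4 passed it through the high wells, since they stood at 1.29, 1.47, 1.99 and 3.82 CPM in low wells, so no count is read from this list. Aspn, Fmod and Tnc are in the matrix list too. Kera, the proteoglycan keratocan, had 53.4 ± 23.8 CPM in high and 1.29 ± 1.05 CPM in low wells (5.45, SE 0.251). Scx, the factor that defines tendon cells, was too low to be tested, at 1.81 ± 1.29 CPM in high and 0.0761 ± 0.201 CPM in low wells.

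Of 20 condensate markers 10 passed the filter on low counts. Trps1, Prdm1 and Smoc1 passed it through the low wells, so no count is read from this list. Trps1, a zinc finger factor of condensates, had 3.95 ± 1.15 CPM in high and 132.6 ± 33.4 CPM in low wells (-4.93, SE 0.143), and Bmp4, a signal of the condensate, had 19.8 ± 6.14 CPM in high and 91.6 ± 31.2 CPM in low wells (-2.10, SE 0.168). Others went the other way. Fgf10, a fibroblast growth factor, was higher by 0.98 (SE 0.12). Heyl, a target of Notch signals, had 12.9 ± 6.56 CPM in high and 3.52 ± 1.34 CPM in low wells and was tested in libraries 1, 2 and 4, where it was higher by 2.06 (SE 0.565, adjusted p = 0.00311). Bmp3, a BMP family gene, was too low to be tested, at 6.06 ± 3.93 CPM in high and 0.0761 ± 0.201 CPM in low wells. Leaving out fibroblast wells with 2 or more UMIs of early condensate genes changed the counts over all genes to 1980 higher and 2107 lower.

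Summed markers of other cell types differed between the classes for pericytes and smooth muscle and for endothelium, and overlapped for the rest. Pericyte and smooth muscle markers summed to 265 to 420 CPM in high and 115 to 166 CPM in low wells. Of 11 such genes 7 passed the filter on low counts. Kcnj8 (5.44, SE 0.228) and Abcc9 (3.503, SE 0.276), subunits of a potassium channel, had the largest differences. They passed the filter through the high wells, since they stood at 1.71 and 3.83 CPM in low wells, so no count is read from this list. Acta2 had 72.7 ± 31.2 CPM in high and 19.05 ± 8.88 CPM in low wells (2.09, SE 0.166). Des had 10.5 ± 4.72 and 2.34 ± 1.07 CPM. Tagln, Notch3 and Cspg4 were higher by 0.75, 0.48 and 0.43, and did not pass in libraries 1, 2 and 4 alone. Mcam did not pass (-0.20, SE 0.235). The defining pericyte genes Rgs5 and Higd1b stood at 0.345 ± 0.361 and 0 CPM in high wells, and at 0.179 ± 0.474 and 0 CPM in low wells. Schwann cell and melanoblast markers summed to 11.5 to 46.3 CPM in high and 21.2 to 761 CPM in low wells, where Dct and Pmel, pigment cell genes, reached 381 and 264 CPM in 1 library. Endothelial markers summed to 98.7 to 119 CPM in high and 43.4 to 89.9 CPM in low wells, epidermal markers to 30.1 to 493 and 37.7 to 477 CPM, skeletal muscle markers to 29.5 to 99.3 and 20.3 to 73.9 CPM, and immune markers to 15.4 to 37.0 and 17.3 to 37.9 CPM. Among endothelial markers Ramp2 alone had 73.8 ± 8.15 CPM in high and 58.5 ± 13.5 CPM in low wells. Tek had 13.5 ± 4.79 and 0.163 ± 0.28 CPM, and Pecam1 2.70 ± 1.59 and 2.95 ± 2.03 CPM. The part of other cell types in the differences was not tested. Of 27 stress genes tested, 20 were higher and 0 lower, with a median of 0.416, and Fos had 1358 ± 289 CPM in high and 846 ± 158 CPM in low wells.

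Genes of G2 and mitosis were mostly lower with Agtr2, and S phase genes in part. Of 41 genes of G2 and mitosis, 36 were lower and none higher in Agtr2-high wells, with a median of -0.54. Top2a, the topoisomerase of dividing cells, had 306 ± 84.2 CPM in high and 514 ± 73.8 CPM in low wells (-0.67, SE 0.112). Of 39 S phase genes, 21 were lower, 1 was higher and 17 did not pass. Over all genes 22.3% were lower in this fit. In libraries 1, 2 and 4 alone 17 of the 41 and 8 of the 39 were lower, where 10.4% of all genes were lower. There 24 of the 41 and 31 of the 39 did not pass, and the medians were -0.404 and -0.213.

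Read from the other side, fibroblast wells were split by the summed CPM of a list, and Agtr2 was compared between wells at or above the 2/3 quantile and wells at or below the 1/3 quantile of their library. These are the wells of the split by Agtr2 above, so the values restate that comparison and are given as a description with no test. In wells high in upper dermal genes Agtr2 had 56.1, 86.9, 107.5, 66.1, 86.8, 47.95 and 82.1 CPM in libraries 1 to 7. In wells low in them it had 2225, 2137, 2180, 1923, 2883, 2234 and 2137 CPM. The groups did not overlap, and the mean log2 ratio was -4.90 ± 0.41 (SD, n = 7). Of the 381 wells at 1000 Agtr2 CPM or more, 1 was high and 328 (86.1%) were low in upper dermal genes.

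In wells high in lower dermal genes Agtr2 had 2110, 2023, 2054, 1734, 2837, 2113 and 2052 CPM, against 50.95, 34.7, 64.6, 36.7, 93.2, 39.7 and 94.6 CPM in wells low in them. Again no values overlapped, and the mean log2 ratio was 5.24 ± 0.50. Among wells high in lower dermal genes, 83.2% of 388 had at least 1000 Agtr2 CPM and 14 had up to 100. Among wells low in them, 2 of 387 had at least 1000 CPM. Wells high in upper dermal genes were shallower, and wells high in lower dermal genes deeper, than their counterparts in all 7 libraries. After thinning every well to 3000 UMIs the ratios were -4.19 and 4.67.

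The difference with division was smaller. In G2/M-high wells Agtr2 had 829.2, 541, 769, 681, 994, 659 and 1127 CPM, against 1039, 1419, 1315, 1209, 1969, 1442 and 1151 CPM in G2/M-low wells. Agtr2 was lower in G2/M-high wells of all 7 libraries, with nearly equal values in library 7, and the ranges overlapped. The mean log2 ratio was -0.78 ± 0.47. G2/M-high wells were deeper than G2/M-low wells in all 7 libraries, and after thinning every well to 3000 UMIs the ratio was -0.81. Of G2/M-high wells 22.2% (86 of 388) had at least 1000 Agtr2 CPM, and of G2/M-low wells 46.1% (179 of 388).

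**Figure D5:**
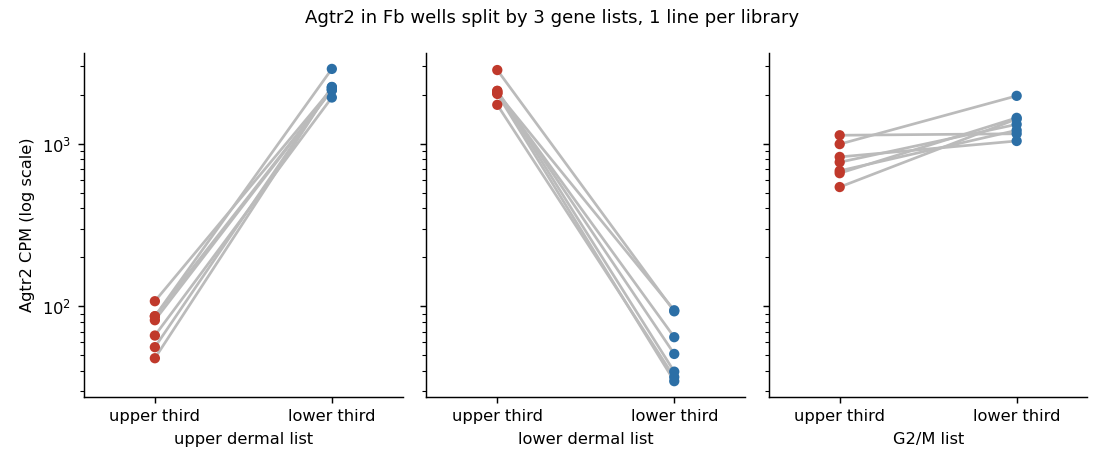
Agtr2 CPM (log scale) in Fb wells at or above the 2/3 quantile (red, left) and at or below the 1/3 quantile (blue, right) of their library for the summed CPM of 3 gene lists, 1 grey line per library. Wells high in upper dermal genes lie at 47.95 to 107.5 CPM and wells low in them at 1923 to 2883 CPM, the order is the opposite for lower dermal genes, and G2/M-high wells lie at 541 to 1127 CPM, each below the G2/M-low wells of its library at 1039 to 1969 CPM.

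Some other genes of the angiotensin system were sparse, and the renin gene Ren1 was not among the genes measured. Others were detected in fibroblast wells, among them Anpep with 2102, Mme with 1770 and Agtr1a with 1604 UMIs. Angiotensinogen (Agt) had 0 UMIs in condensate and 7 in fibroblast wells, and the angiotensin-(1-7) receptor gene Mas1 had 0 in condensate and 1 in fibroblast wells. Ace, the converting enzyme, had 53 UMIs in condensate and 8 in fibroblast wells. None of Agt, Mas1 and Ace passed the filter on low counts over libraries 1 to 6. Ace was called higher in condensate wells where no filter was used, and in the libraries of the shared run alone.

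Agtr1a, the main AT1 receptor gene of mice, was detected at a low level in both classes of wells and was higher where Agtr2 was high. It had 78.8, 60.8, 57.5, 59.3, 51.9, 54.4 and 54.4 CPM in Agtr2-high wells of libraries 1 to 7, against 32.3, 40.2, 33.0, 21.6, 38.5, 45.8 and 45.3 CPM in Agtr2-low wells. High wells were above low wells in each library, with no overlap of the ranges (0.78, SE 0.131, adjusted p = 2.05e-05, edgeR). The shared run gave 0.59 and the other libraries 1.21, and after thinning to 3000 UMIs the difference no longer passed (0.32, adjusted p = 0.37).

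Mtus1, whose product binds the tail of the AT2 receptor, was lower where Agtr2 was high. It had 21.2, 23.7, 22.9, 42.2, 16.9, 20.3 and 24.2 CPM in Agtr2-high wells, against 66.5, 55.2, 58.0, 57.6, 69.1, 50.8 and 57.3 CPM in Agtr2-low wells. The ranges did not overlap (-1.23, SE 0.144, adjusted p = 6.63e-08). Mme, the peptidase neprilysin, had 24.7 ± 8.96 CPM in high and 97.8 ± 12.6 CPM in low wells (-1.83, SE 0.138, adjusted p = 1.44e-11).

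Of the 8 angiotensin genes tested, 3 were higher and 3 lower, where 21.0% of all genes were higher and 22.3% lower. Anpep, aminopeptidase N, had 82.4 ± 21.6 CPM in high and 55.02 ± 18.0 CPM in low wells (0.69, SE 0.102) and did not pass after thinning (0.37, adjusted p = 0.25). The peptidase genes Nln (0.63, SE 0.246) and Lnpep (-0.66, SE 0.256) passed narrowly, and lost their calls under 10 and 9 alternatives. Atp6ap2, the prorenin receptor (0.29, SE 0.129), did not pass, but passed under 5 alternatives with differences of 0.30 to 0.40 (adjusted p = 0.0144 to 0.0471, edgeR). Thop1 (0.01, SE 0.172) did not pass.

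Condensate and fibroblast wells of libraries 1 to 6 were compared for the same list. Over all genes 10.4% of 9639 were higher in condensate wells and 13.2% lower. Mtus1 had 332, 264, 271, 200, 229 and 205 CPM in condensate wells, against 35.2, 36.7, 37.8, 42.2, 34.0 and 32.9 CPM in fibroblast wells. Every condensate value was above every fibroblast value (2.67, SE 0.176, adjusted p = 1.17e-15, edgeR). Agtr1a had 10.2 ± 8.54 CPM in condensate and 50.95 ± 5.19 CPM in fibroblast wells (-2.37, SE 0.39, adjusted p = 7.37e-06), a difference that rests on 12 UMIs in the condensate wells of these libraries.

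Anpep had 17.1 ± 14.1 CPM in condensate and 62.5 ± 13.7 CPM in fibroblast wells (-2.03, SE 0.354), and did not pass in libraries 1, 2 and 4 alone (adjusted p = 0.074). Lnpep, Atp6ap2, Mme, Nln and Thop1 did not pass, with differences of -0.31, -0.10, -0.65, -0.84 and -0.26. Mme passed with no filter (-0.77, adjusted p = 0.0415), without library 5 (-0.99, adjusted p = 0.0253) and in libraries outside the shared run (-1.87, adjusted p = 0.0444, a split chosen after seeing the data). Fibroblast wells enter both this comparison and the split by Agtr2, so the values of Mtus1 and Agtr1a in the 2 comparisons are not independent.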

How the data were processed

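Values for DC0, DC1, DC2, Fb and spike-in wells came from a single deposited table of 9 SORT-seq libraries. The table also has 86 spike-in rows, and 12 bulk samples were not analysed here. Per the submitters' processing notes the build was mm10; the tools listed there, for unknown steps, were BWA 0.6.2-r126, Cufflinks 2.1.1, TopHat2 2.0.3 and Bowtie2. The authors deposited expected counts, UMIs corrected for those that fell by chance on the same 1 of 4096 tags: all 7480233 values above 0 lay within 0.005 of that formula. They were rounded to whole numbers, since the design had assumed counts, which changed 13.5% of them. No well was scaled. The planned permutation tests of Agtr2 by gene list reuse the wells split by Agtr2 and are not given.

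Fits used edgeR 4.0.16 (quasi-likelihood, TMM, filterByExpr, library as a block, Benjamini-Hochberg at 0.05) in R 4.3.3, with DESeq2 1.42.0 as an alternative, and Python 3.11.15 with scipy 1.17.1. Same-plate sums deviated together (correlations 0.13 to 0.42 in 7 libraries), and the library was kept as the block that pairs the classes. In library 7 (0.129) the high sum went more closely with the low sum of another library. On simulated data the 7-library fit recovered 85% of 2-fold and 94% of 4-fold changes among 9721 genes. The fit of libraries 1, 2 and 4 recovered 40% and 91% among 8947, and the condensate fit 43% and 87% among 9640. Of the genes called on those data, 3.76, 6.43 and 2.26% were false in these 3 fits. The share of false calls in the fits of the measured wells was not tested.

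Genes named with Agtr2 needed the same direction in libraries 3, 5, 6 and 7 and 50 CPM in the higher class, and were the 12 largest and 12 smallest mean log2 ratios with 50 CPM added. List members named with values are mostly those with the largest change, and others were chosen after their values were seen. Alternatives were another scaling, no filter, no block, a split at the median, 10000 UMIs a well, thinning, wells left out, and each library or run left out. Members, lists and tests were chosen with earlier results of these data known. Intervals cover counting error only.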

Additional observations from a re-analysis of the deposited data

Results flagged for a closer look

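In 65 groups of 4 to 10 libraries, 10 had a library far from the others by Dixon's ratio, where chance gives about 1 in 20. For Agtr2 itself these were DC2 wells of library 1 at 700.5 CPM (2 UMIs) and DC1 wells of library 5 at 108.2 CPM (9 UMIs). In Agtr2-high wells they were Agtr1a at 78.8 CPM in library 1, Mtus1 at 42.2 CPM in library 4 and Akap2 at 13.42 CPM in library 7. In Agtr2-low wells they were Aspn at 100.4 CPM in library 6, Wif1 at 172.9 and Cav1 at 675.7 CPM in library 4, Bcl11a at 380.5 CPM in library 7 and Bcl11b at 476.5 CPM in library 1. The direction of each of these genes between Agtr2-high and Agtr2-low wells was the same in the library concerned as in the others.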

How the results depend on the processing

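The 24 genes named with Agtr2 passed in the same direction under all alternatives run in libraries 1, 2 and 4. Counts over all genes moved more. With wells thinned to 3000 UMIs, 621 genes were higher and 536 lower over 7 libraries, and 375 and 266 in libraries 1, 2 and 4, where fewer genes could be tested. Those 3 libraries alone gave 1209 and 932. Within them DESeq2 gave 631 and 355, leaving out dividing wells gave 768 and 577, and without the replicate block 473 were lower. The cause of these changes was not tested. In the condensate comparison 2 angiotensin genes rather than 1, Mtus1 and Ace, were higher with no filter, and the same 2 in the shared run alone, a split chosen after seeing the data. The mean of the wells' CPM in place of the CPM of the sum gave 176 CPM in DC0.

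The 3 ratios of Agtr2 by gene list, which use the wells of the split by Agtr2 and support nothing further, kept their sign in either part of the libraries. They were -4.89, 5.00 and -0.73 in the shared run and -4.91, 5.57 and -0.85 outside it for upper dermal, lower dermal and G2/M genes. Thop1, near 0, changed sign with wells split at the median (-0.0584), wells of at least 10000 UMIs (-0.0725), without wells with condensate genes (-0.0975), without dividing wells (-0.0784), in the shared run (-0.0603) and over the libraries left out in turn (-0.0808 to 0.102). Atp6ap2 in condensate against fibroblast wells ran over -0.228 to 0.0268 as libraries were left out in turn. Nln and Lnpep lost their calls under 10 and 9 alternatives. The planned comparison of Agtr2 between Xist and Y-gene wells could not be run, since 0 wells met the Y-gene rule.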

Other observations

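Agtr2 is X-linked, which made the sex of the cells of interest. Xist, the RNA that coats the inactive X chromosome, had at least 1 UMI in 1046 of the 1155 fibroblast wells (90.6%). The 2 Y-linked genes among the rows of the table had 5 UMIs in all cell wells. These values enter no comparison.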
